A study of Mus musculus with 12 samples.

Results

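The genes described here carry fatty acids into and through fat cells: 4 fatty acid binding proteins (Fabp3, Fabp4, Fabp5 and Fabp7), 3 membrane proteins of fatty acid uptake (Cd36, Slc27a1 and Slc27a4), and Lpl, Angptl4 and Vldlr, which act on lipoproteins outside the cell. They were chosen by name as 10 of the 35523 genes to which the reads could be assigned. Lipoprotein lipase (Lpl) frees fatty acids from the triglycerides of circulating lipoproteins, Angptl4 inhibits it, and the receptor Vldlr binds triglyceride-rich particles. CD36 and the transport proteins encoded by Slc27a1 (FATP1) and Slc27a4 (FATP4) promote entry of the freed acids, and the binding proteins carry them in the cytosol. Several of these genes are known targets of the nuclear receptor PPARγ in adipocytes.

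Total and polysomal poly(A) RNA was read from cultured cells of the stromal vascular fraction (SVF) of epididymal fat, to ask which mRNAs rosiglitazone (Rosi), a PPARγ agonist, brings onto heavily loaded ribosomes. All cells came from 12-week-old male Lepob/Lepob mice, which lack functional leptin, and no group came from lean mice. The cells were grown to confluence and differentiated over 4 days with insulin at 5 µg/mL, together with 0.5 mM 3-isobutyl-1-methylxanthine and 1 µM dexamethasone in the first 2 days, and every culture also received cycloheximide at 100 µg/mL in the last 5 min. The 4 groups were polysome Rosi, polysome Veh, input Rosi and input Veh, in which polysome is the pool of gradient fractions with 3 or more ribosomes per mRNA by the deposited design text and more than 3 by the published methods, input is the total RNA, Rosi received 1 µM rosiglitazone and Veh received DMSO. Each group had 3 libraries labelled as biological replicates, but replicates 2 and 3 of input Veh did not differ at any of 117135 transcripts, so they entered as a single sample (n = 2 for input Veh), giving 11 libraries in all.

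Estimated reads per library ran from 17.4 M to 24.02 M. The first principal component (50.4% of variance) ran from polysome to input libraries, and polysome Veh replicate 1 lay furthest out on it (−52.8, against −27.3 and −21.2 for the other polysome Veh libraries), followed by polysome Rosi replicate 3 (−42.3). The cultures held markers of several cell types. The 8 adipocyte markers summed to 191 to 236 CPM (counts per 1 M reads after scaling) in polysome Rosi, 7.27 to 10.2 in polysome Veh, 243 to 334 in input Rosi and 15.2 to 17.4 in input Veh, with leptin, a defining marker, among them read in 1 library only. The 12 macrophage markers summed to 15157 to 19150 CPM in polysome Rosi, 16868 to 21944 in polysome Veh, 12292 to 14407 in input Rosi and 17100 to 19674 in input Veh. The 7 smooth muscle and pericyte markers summed to 7674 to 9263 CPM in polysome Rosi, 7889 to 8662 in polysome Veh, 10476 to 10999.5 in input Rosi and 11838 to 12015.5 in input Veh. Over all libraries, the 6 progenitor markers summed to 263 to 436 CPM and the 5 mesothelial markers to 39.1 to 64.8 CPM. The 5 epididymis markers, of which 3 were at 0 in each group, summed to 72.8 to 258 CPM. The 9 endothelial markers stayed between 15.7 and 27.4 CPM. In such bulk libraries more cells of a type and more RNA per cell cannot be told apart, and the part of these markers in the differences given here was not tested.

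Rosi raised Fabp4, Angptl4 and Cd36 in both RNA pools, and none of the 10 was called lower (background 0.0223% of genes in the polysome pool and 0.206% in input). A gene was called where edgeR's adjusted p was under 0.05 and the absolute log2 fold change over 0.2. In the polysome pool 3 of the 10 were called higher, where 0.633% of the 13436 genes tested were (0.655% in either direction). In input the same 3 were called higher, where 1.13% of 13603 were (1.34% in either direction). The median log2 fold change of the 10 was 0.22 in the polysome pool and 0.20 in input, where that of all genes tested was −0.01 and 0.01.

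Fabp4, the adipocyte fatty acid binding protein, had the largest response of the 10. In the polysome pool it stood at 1029, 1097 and 1313 CPM in Rosi, against 162, 115 and 117 CPM in Veh. In input it stood at 433, 425 and 412 CPM in Rosi, against 68.3 and 65.4 CPM in Veh. Every Rosi library lay above every Veh library in both pools. Its log2 fold change came to 3.11 ± 0.16 (SE; adjusted p = 1.45e-07, edgeR) in the polysome pool and 2.73 ± 0.09 (adjusted p = 2.76e-09) in input, that is 8.66-fold and 6.64-fold. Fabp4 was also among the study's own polysome examples, which were picked on these samples, so its direction is not independent evidence. The highest polysome Veh value belonged to replicate 1, and without that library the gene was still called.

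Fabp5, the epidermal fatty acid binding protein, which macrophages also make, did not pass in either pool. In the polysome pool it stood at 427, 452 and 505 CPM in Rosi, against 456, 400.5 and 331 CPM in Veh, and the groups overlapped. In input it stood at 285, 259.8 and 264 CPM in Rosi, against 298 and 312 CPM in Veh, so that all Rosi libraries were lower. The log2 fold change was 0.21 (95% interval −0.07 to 0.49) in the polysome pool and −0.11 (−0.29 to 0.07) in input (edgeR adjusted p = 1 and 0.51).

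Per length, in TPM (transcripts per 1 M transcripts), the order of these 2 genes turned with treatment. In the polysome pool Fabp4 had a mean level of 2404 ± 213 TPM and Fabp5 of 838 ± 38.4 TPM in Rosi (SD, n = 3), against 273 ± 45.4 and 710 ± 85.0 TPM in Veh (SD, n = 3). In input Fabp4 had 903 ± 16.5 TPM and Fabp5 495 ± 16.5 TPM in Rosi (SD, n = 3), against 130 ± 11.8 and 514 ± 12.0 TPM in Veh (SD, n = 2). Of the summed TPM of the 4 binding proteins, Fabp4 held 73.1% ± 0.96 in polysome Rosi, 26.7% ± 2.24 in polysome Veh, 63.6% ± 0.68 in input Rosi and 19.5% ± 1.06 in input Veh (SD). Both genes lie in a cluster on chromosome 3 (GRCm38), Fabp5 at 10012548 to 10016607 on the plus strand and Fabp4 at 10204088 to 10208576 on the minus strand, 187 kb apart. Of their neighbours there, Fabp9, which lies between them, and Fabp12, on the far side of Fabp4, had 0 reads in all 11 libraries, which allows a level of up to 0.0131 CPM over those libraries (3 counts, counting error only).

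**Figure D1:**
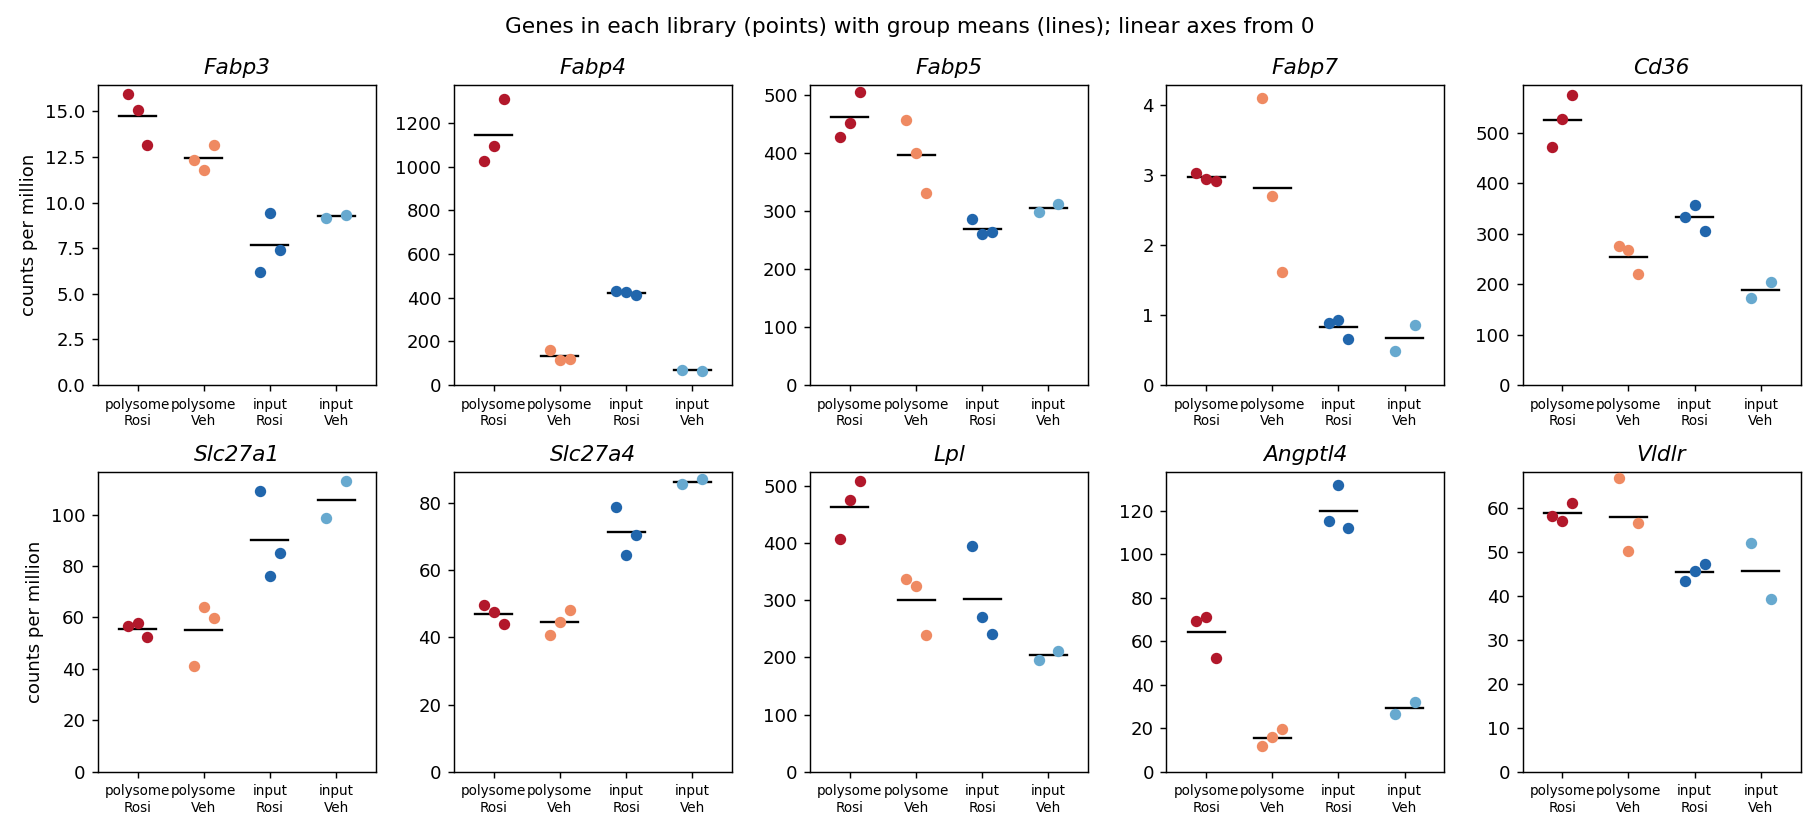
CPM (linear axes from 0) of the 10 genes in each library, 1 point per library with a line at the group mean, for polysome Rosi, polysome Veh, input Rosi (n = 3 each) and input Veh (n = 2). Fabp4, Cd36 and Angptl4 were higher in Rosi in both pools, and Angptl4, Slc27a1 and Slc27a4 were lower in polysome than in input.

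The other binding proteins, Fabp3 (chromosome 4, 130308595 to 130315463, plus strand) and Fabp7 (chromosome 10, 57784881 to 57788450, plus strand), were scarce. Fabp3, the heart-type protein, stood at 15.96, 15.1 and 13.1 CPM in polysome Rosi, against 12.3, 11.8 and 13.2 CPM in polysome Veh, and at 6.21, 9.42 and 7.42 CPM in input Rosi, against 9.18 and 9.33 CPM in input Veh. The treatments overlapped in both pools. Its log2 fold change was 0.24 (95% interval −0.05 to 0.52) in the polysome pool and −0.20 (−0.61 to 0.22) in input. Fabp7, the brain-type protein, stood at 3.04, 2.95 and 2.92 CPM in polysome Rosi, against 4.11, 2.71 and 1.62 CPM in polysome Veh. In input it rested on few reads, 18, 21 and 16 in Rosi, against 8 and 16 in Veh. Its intervals were the widest of the 10, −0.58 to 0.71 in the polysome pool and −0.69 to 1.38 in input on the log2 scale. A 2-fold rise in input lay within the latter. Of other cell types that make these proteins, 7 markers of striated muscle summed to 8.07 to 25.4 CPM over all libraries. In each group 3 or 4 of these 7 were at 0. The 6 markers of glia, of which 2 or 3 were at 0 in each group, summed to at most 1.39 CPM.

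Cd36, the fatty acid translocase, stood at 471, 527 and 575 CPM in polysome Rosi, against 275, 268 and 220.4 CPM in polysome Veh. In input it stood at 334, 357 and 306 CPM in Rosi, against 172 and 204 CPM in Veh. The treatments did not overlap in either pool. The log2 fold change was 1.03 ± 0.12 (SE; adjusted p = 5.99e-04, edgeR) in the polysome pool and 0.89 ± 0.10 (adjusted p = 4.78e-04) in input. Macrophages also express Cd36, and their summed markers overlapped between polysome Rosi and polysome Veh and were lower in input Rosi than in input Veh, with no overlap. The part of macrophages in the rise of Cd36 was not tested.

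Cd36 (chromosome 5, 17781690 to 17888801, minus strand) has several annotated first exons, and its reads fell mainly on a far and a near group of them. Transcripts that start between 17888747 and 17888801 held 46.4% ± 3.05 of its reads in polysome Rosi, 44.3% ± 2.99 in polysome Veh, 42.8% ± 3.92 in input Rosi and 41.0% ± 1.95 in input Veh (SD). Transcripts that start between 17835696 and 17835717 held 44.8% ± 4.72, 47.7% ± 4.45, 45.1% ± 4.47 and 47.8% ± 1.37 of its reads in the same groups. The library ranges of all 4 groups overlapped for the second of these starts. For the first, polysome Rosi (42.9% to 48.3%) lay above input Veh (39.6% to 42.3%), and all other pairs of groups overlapped. These shares are Salmon's estimates among transcripts that overlap in sequence. Of the 10 genes, 6 had a promoter in the RefSeq table for GRCm38.p6 (Fabp3, Fabp7, Cd36, Slc27a1, Slc27a4 and Vldlr), with 9 windows in all. The first window listed for Cd36 is shown because Cd36 was the only gene among these 6 that was called in both pools. The 250 bases before its RefSeq start, chr5:17835897-17836146 on the minus strand, lie next to the second group of starts, and capitals mark matches to AGGTCA and CCAAT:
Cd36: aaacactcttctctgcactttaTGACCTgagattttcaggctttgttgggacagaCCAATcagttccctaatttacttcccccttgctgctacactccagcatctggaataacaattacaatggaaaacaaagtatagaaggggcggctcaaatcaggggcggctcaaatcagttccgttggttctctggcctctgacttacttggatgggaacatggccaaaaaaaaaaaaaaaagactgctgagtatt
AGGTCA is the half-site that PPARγ and RXR bind as the direct repeat AGGTCANAGGTCA. Searched on both strands, AGGTCA occurred 228 to 223 bases before the Cd36 start, on the opposite strand, and in 14% of 32851 promoter windows of the same length. It also occurred in the Fabp7 promoter, 171 to 166 bases before the start. The repeat itself was in none of the 9 windows of these 6 genes and in 0.0335% of all windows. CCAAT occurred in the promoters of Cd36, Slc27a1, Fabp7 and Vldlr and in 33.8% of all windows. TATAAA occurred in none of the 9 windows and in 12.4% of all. These letters describe 1 window per start and not a bound site.

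The transport proteins, Slc27a1 (chromosome 8, 71568882 to 71587302, plus strand) and Slc27a4 (chromosome 2, 29802634 to 29817522, plus strand), showed no called response to Rosi. Slc27a1 stood at 56.6, 57.7 and 52.5 CPM in polysome Rosi, against 41.2, 64.1 and 59.8 CPM in polysome Veh, and at 109, 76.1 and 84.9 CPM in input Rosi, against 98.6 and 113 CPM in input Veh. The treatments overlapped in both pools, with a log2 fold change of 0.01 (95% interval −0.32 to 0.33) in the polysome pool and −0.17 (−0.44 to 0.11) in input. Slc27a4 stood at 49.6, 47.5 and 44.1 CPM in polysome Rosi, against 40.8, 44.7 and 48.2 CPM in polysome Veh, with overlap. In input it stood at 78.7, 64.6 and 70.5 CPM in Rosi, against 85.6 and 86.9 CPM in Veh, with all Rosi libraries lower (log2 fold change −0.21, 95% interval −0.42 to 0.00, edgeR adjusted p = 0.298). Without input Rosi replicate 1, Slc27a1 was called lower in input (log2 fold change −0.32, edgeR adjusted p = 0.0393). In that setting 879 of 13484 genes were called lower, against 28 of 13603 with all libraries.

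Lpl (chromosome 8, 68880491 to 68907448, plus strand) showed no overlap between treatments but did not pass. It stood at 406, 475 and 509 CPM in polysome Rosi, against 337, 325 and 239 CPM in polysome Veh. In input it stood at 394, 269.7 and 241 CPM in Rosi, against 196 and 211 CPM in Veh. Every Rosi library lay above every Veh library, and input Rosi replicate 1 lay well above the other input Rosi libraries. The log2 fold change was 0.62 ± 0.14 (SE; adjusted p = 0.102, edgeR) in the polysome pool and 0.63 ± 0.16 (adjusted p = 0.0699) in input. Groups without overlap were 4 of the 10 genes in the polysome pool, where 8.96% of all genes tested had none, and 6 of the 10 in input, where 36.7% had none. The call of Lpl rested on the setting: it passed in input without input Rosi replicate 1 (0.40, adjusted p = 0.00607) or replicate 3 (0.76, adjusted p = 0.00491), and in the polysome pool without polysome Veh replicate 1 (0.71, adjusted p = 0.0382). Of all genes, 1580, 133 and 179 were called in these settings, in that order. With all libraries 182 were called in input and 88 in the polysome pool.

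Angptl4 (chromosome 17, 33773750 to 33781830, minus strand), the secreted inhibitor of lipoprotein lipase, rose in both pools. It stood at 69.1, 70.9 and 52.5 CPM in polysome Rosi, against 11.8, 15.8 and 19.7 CPM in polysome Veh. In input it stood at 115, 132 and 112 CPM in Rosi, against 26.4 and 32.1 CPM in Veh. The treatments lay far apart. The fold on the log2 scale was 2.02 ± 0.18 (SE; adjusted p = 4.92e-05, edgeR) in the polysome pool and 2.10 ± 0.12 (adjusted p = 5.21e-07) in input, 4.05-fold and 4.28-fold. Most of its reads were assigned to a transcript that is annotated as a target of nonsense-mediated decay. It held 70.2% ± 4.17 in polysome Rosi, 61.8% ± 8.48 in polysome Veh, 62.7% ± 0.54 in input Rosi and 66.2% ± 1.75 in input Veh (SD). As for Cd36, these shares are Salmon's estimates among transcripts that overlap in sequence. The full-length coding transcript alone stood at 19.3 ± 5.40 CPM in polysome Rosi and 5.81 ± 0.37 CPM in polysome Veh (SD, n = 3 each), and at 44.5 ± 3.51 CPM in input Rosi (SD, n = 3) and 9.95 ± 1.88 CPM in input Veh (SD, n = 2), so that it too lay higher in Rosi with no overlap. Vldlr (chromosome 19, 27216484 to 27254231, plus strand) stood at 58.4, 57.1 and 61.3 CPM in polysome Rosi, against 66.98, 50.3 and 56.7 CPM in polysome Veh, and at 43.4, 45.6 and 47.4 CPM in input Rosi, against 52.2 and 39.3 CPM in input Veh. The treatments overlapped in both pools (log2 fold change 0.01, 95% interval −0.25 to 0.28, in the polysome pool and 0.06, −0.21 to 0.33, in input).

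**Figure D2:**
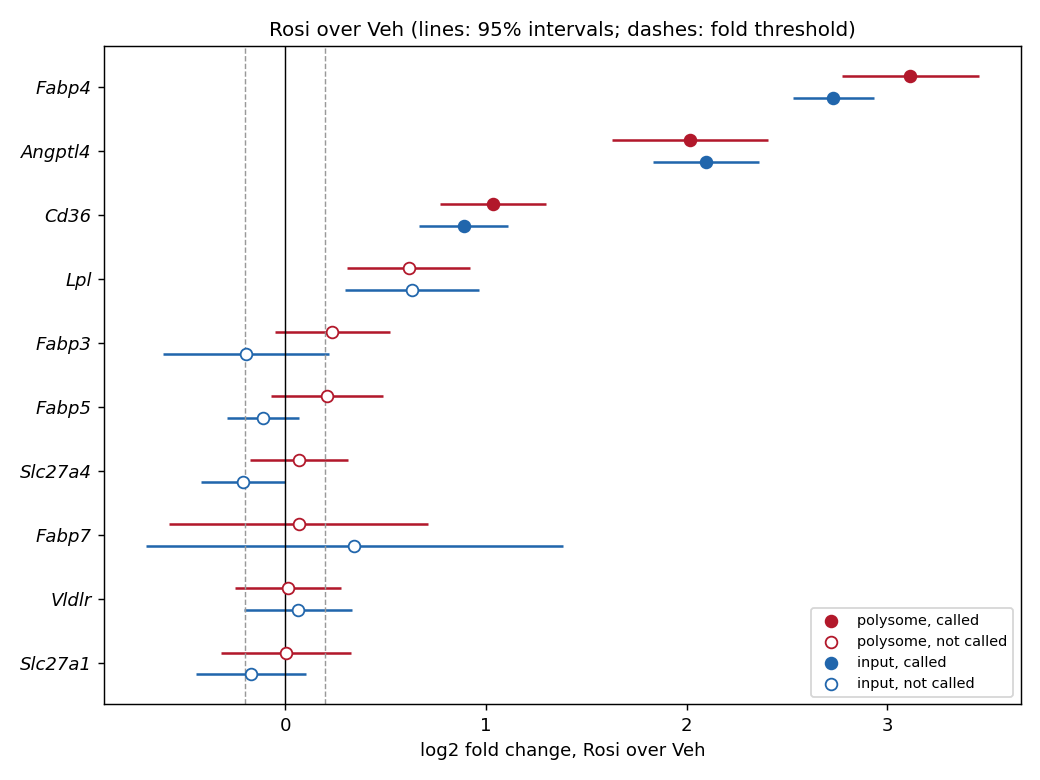
Log2 fold change of Rosi over Veh for the 10 genes in the polysome pool and in input, with 95% intervals as lines, filled points where the gene was called and dashes at the fold threshold of 0.2. Fabp4, Angptl4 and Cd36 were called in both pools, and the intervals of Lpl lay above 0 although its adjusted p missed the threshold.

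The second comparison set the polysome pool against input within each treatment. Since each library is scaled to its own total, a fold here is relative to the other mRNAs of that pool. These comparisons use the same libraries as those of Rosi against Veh. The 4 binding proteins, Cd36, Lpl and Vldlr were higher in the polysome pool, and Slc27a1, Slc27a4 and Angptl4 were lower, in both treatments. All 10 had an edgeR adjusted p under 0.05 in Rosi and in Veh, which 55.1% and 49.3% of the 14042 genes tested also had (29.1% higher and 26% lower in Rosi, 24.7% higher and 24.6% lower in Veh). The median log2 fold change of the 10 was 0.64 in Rosi and 0.40 in Veh, and that of all genes 0.00 and 0.02. Past an absolute log2 fold change of 1, Fabp7 and Fabp4 were called in Rosi, where 11.3% of all genes were (6.49% higher, 4.86% lower), and Fabp7 in Veh, where 9.67% were (2.99% higher, 6.68% lower).

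Fabp7 had the largest fold of the 10, 3.596-fold higher in polysome than in input in Rosi (log2 fold change 1.85 ± 0.34, SE; adjusted p = 2.8e-04, edgeR) and 4.12-fold in Veh (2.04 ± 0.42; adjusted p = 9.08e-04), on 198 polysome and 55 input reads in Rosi, and 168 and 24 in Veh. Fabp4 was 2.71-fold higher in Rosi (1.44 ± 0.13; adjusted p = 5.51e-07) and 1.97-fold in Veh (0.98 ± 0.15; adjusted p = 6.61e-05). In Veh it lay just under the fold threshold, and it was past it without polysome Veh replicate 2 (1.06), polysome Veh replicate 3 (1.05) or input Veh replicate 1 (1.01). Over all alternatives Fabp4 ran from 0.79 to 1.06 in Veh. On the lower side, Slc27a1 passed the threshold without polysome Veh replicate 2 (−1.07), polysome Veh replicate 3 (−1.01) or input Veh replicate 1 (−1.04). Angptl4 passed it without polysome Veh replicate 3 (−1.09) or input Veh replicate 1 (−1.03), and Slc27a4 without polysome Veh replicate 3 (−1.01). Over all alternatives in Veh, Slc27a1 ran from −1.07 to −0.78, Angptl4 from −1.09 to −0.74 and Slc27a4 from −1.01 to −0.83. In Rosi, Fabp3 was past the threshold without polysome Rosi replicate 3 (1.01) or input Rosi replicate 2 (1.11), and ran from 0.81 to 1.11 over all alternatives. Fabp3 had log2 fold changes of 0.94 ± 0.15 in Rosi and 0.42 ± 0.17 in Veh, and Fabp5 of 0.77 ± 0.11 in Rosi and 0.38 ± 0.12 in Veh (SE). For Cd36 they were 0.66 ± 0.11 and 0.44 ± 0.13, for Lpl 0.62 ± 0.16 and 0.56 ± 0.19, and for Vldlr 0.37 ± 0.12 and 0.34 ± 0.14, in Rosi and in Veh. Of the genes that were lower, Slc27a4 had log2 fold changes of −0.60 ± 0.10 in Rosi and −0.95 ± 0.11 in Veh, Slc27a1 of −0.69 ± 0.15 and −0.94 ± 0.17, and Angptl4 of −0.90 ± 0.16 and −0.90 ± 0.18. The polysome and input libraries did not overlap for 10 of the 10 genes in Rosi and 9 of the 10 in Veh, all but Vldlr, where 65.5% and 64.0% of all genes did not.

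**Figure D3:**
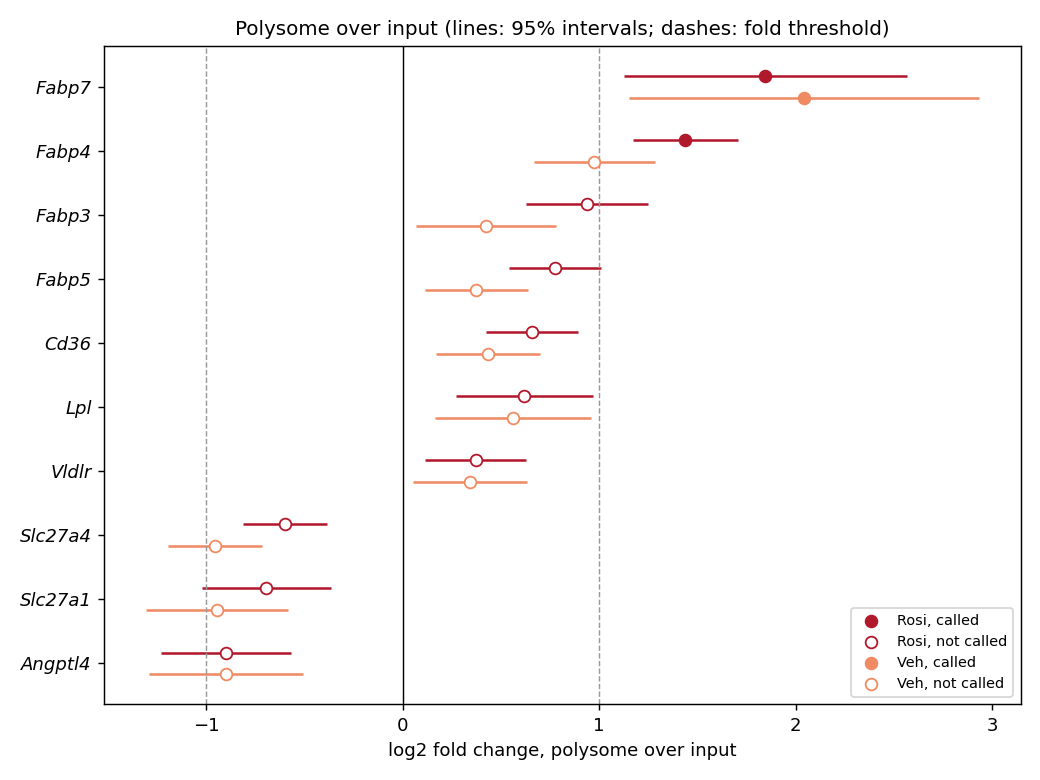
Log2 fold change of polysome over input for the 10 genes in Rosi and in Veh, with 95% intervals as lines, filled points where the gene was called and dashes at the fold threshold of 1. The points of 7 genes lay above 0 and those of Slc27a4, Slc27a1 and Angptl4 below it, and Fabp7 and Fabp4 were past 1 in Rosi.

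The polysome libraries that stood apart on the first principal component also stood apart here. Of the 10 genes, polysome Veh replicate 1 held the polysome Veh value furthest in the direction of its difference from input for 9, all but Fabp3, and polysome Rosi replicate 3 did so among the polysome Rosi libraries for 8, all but Fabp3 and Fabp7. With that Veh library left out, all 10 kept their direction, but Fabp3, Fabp5, Lpl and Vldlr no longer had an adjusted p under 0.05 in Veh. Fabp3 and Lpl lost it without polysome Veh replicate 2, Fabp3 and Vldlr without polysome Veh replicate 3, Fabp3, Fabp5, Cd36 and Lpl without input Veh replicate 1, and Fabp3, Fabp5, Lpl and Vldlr without input Veh replicate 2. With all libraries kept, Fabp3 also lost it with DESeq2, and Vldlr with RLE factors or limma. Fabp3, Fabp5 and Vldlr lost it in a fit of the 2 Veh groups alone. With the replicate number as a block, Fabp3 and Vldlr lost it, and Fabp3 did with the identical library as number 3. Fabp4, Fabp7, Slc27a1, Slc27a4 and Angptl4 kept it in Veh under each of these alternatives. In Rosi, Vldlr alone lost it, without polysome Rosi replicate 3, without input Rosi replicate 1 or with limma.

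The genes differ in the length of their coding sequence. Over 13243 genes, each at the coding sequence of its transcript with most reads, longer ones went with a lower polysome over input fold. Spearman's rho was −0.321 in Rosi and −0.303 in Veh, across genes, which are not independent replicates and share libraries. Genes whose transcript with most reads has no annotated coding sequence were left out. The longest coding sequences of Fabp4, Fabp3 and Fabp5 have 396, 399 and 405 bases, and that of Fabp7 has 564. The longest of Angptl4, Cd36 and Lpl have 1230, 1416 and 1422 bases, that of Slc27a4 has 1929, of Slc27a1 1938 and of Vldlr 2619. The transcript with most reads codes for 396 bases in Fabp7 and 462 in Angptl4. It has no annotated coding sequence in Slc27a1, which therefore did not enter the correlation. Vldlr, the longest, was higher in the polysome pool, and Angptl4, shorter than Cd36 and Lpl, was lower. For Slc27a1, transcripts with a retained intron held 74.3% ± 6.05 of its reads in polysome Rosi, 72.1% ± 4.12 in polysome Veh, 63.7% ± 4.98 in input Rosi and 67.1% ± 4.68 in input Veh (SD). Its coding transcripts alone stood at 14.4 ± 3.91 CPM in polysome Rosi against 32.5 ± 5.84 CPM in input Rosi (SD, n = 3 each), and at 15.2 ± 2.75 CPM in polysome Veh (SD, n = 3) against 34.6 ± 1.59 CPM in input Veh (SD, n = 2), without overlap. These values for Slc27a1 also rest on Salmon's split of reads among overlapping transcripts.

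**Figure D4:**
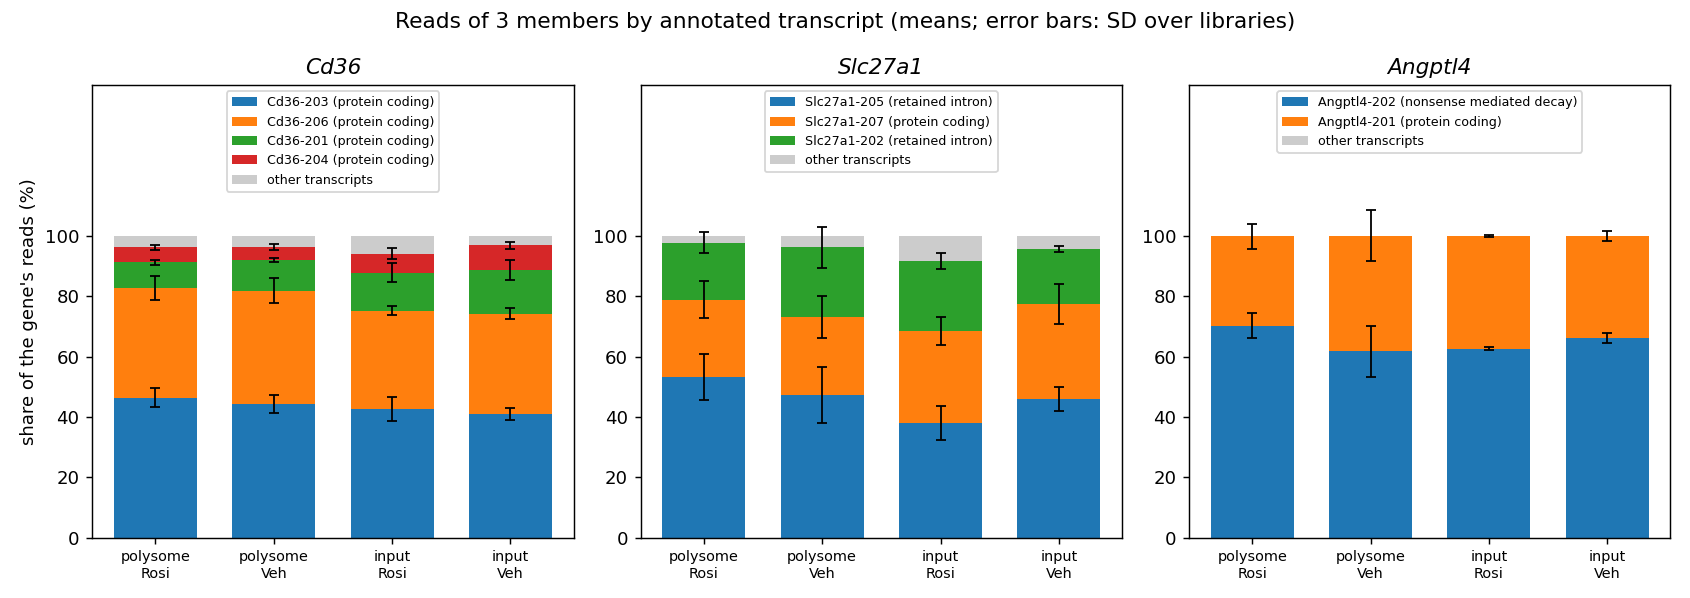
Share of the reads of Cd36, Slc27a1 and Angptl4 (percent) assigned to each annotated transcript in polysome Rosi, polysome Veh, input Rosi (n = 3 each) and input Veh (n = 2), as stacked means with error bars of 1 SD over libraries. The transcript annotated for nonsense-mediated decay held 70.2% of Angptl4 reads in polysome Rosi, 61.8% in polysome Veh, 62.7% in input Rosi and 66.2% in input Veh. Transcripts with a retained intron held most Slc27a1 reads in every group.

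The sequence around the start codon is shown because it is read by the ribosome as it begins translation. The lines give the most abundant coding transcript in GENCODE M21, from 10 bases before the start codon, with ATG in capitals, first for the genes that were higher in the polysome pool and then for those that were lower:
Fabp3: tcatcgcaccATGg
Fabp4: ggtttacaaaATGt
Fabp5: ccctcccaccATGg
Fabp7: gcggttaaggATGg
Cd36: cacgaggagaATGg
Lpl: gcaccgggagATGg
Vldlr: ggcgggcagcATGg
Slc27a1: cagggatctgATGc
Slc27a4: ccgggtcacaATGc
Angptl4: ccccagaatcATGc
A start of the form ANNATGG was found in Fabp3, Fabp5, Fabp7, Cd36 and Vldlr, and GNNATGG in Lpl. Fabp4 and the 3 genes that were lower had neither form. Of 13065 genes tested, 45.4% had 1 of these forms, and their median polysome over input fold was 0.00 on the log2 scale in Rosi and 0.00 in Veh, against 0.00 in Rosi and 0.03 in Veh for the genes with neither. The full CACCATGG was found in Fabp3 and Fabp5 and in 2.15% of genes.

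The third comparison asked whether the polysome over input fold itself differed between Rosi and Veh. The fitted difference was above 0 for 8 of the 10 genes and for 59.1% of all 14042 genes, and 0 of the 10 and 0 of all genes were called by edgeR. The difference was 0.51 ± 0.22 for Fabp3, 0.46 ± 0.19 for Fabp4, 0.40 ± 0.16 for Fabp5 and 0.35 ± 0.15 for Slc27a4 (log2, SE), with an unadjusted p of 0.0259 to 0.0348 and an adjusted p of 0.719 for each. An unadjusted p under 0.05 was found for these 4 of the 10 genes and for 6.84% of all genes. For Fabp4 the 95% interval ran from 0.06 to 0.86, and for Fabp5 from 0.05 to 0.75. For Angptl4 it ran from −0.57 to 0.56, for Lpl from −0.47 to 0.58 and for Fabp7 from −1.35 to 0.96. For Angptl4, Lpl and Fabp7, differences of either sign within these bounds were thus not excluded. DESeq2 called 0 of the 10 genes and 1 of all genes.

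Compared per length, in input Veh the order was Fabp5 (514 TPM), Fabp4 (130), Cd36 (87.8), Lpl (61.0), Slc27a1 (47.0), Slc27a4 (26.0), Fabp3 (20.7), Angptl4 (17.9), Vldlr (12.3) and Fabp7 (1.54 TPM), and no neighbours in it overlapped between their 2 libraries. In polysome Rosi the order was Fabp4 (2404 TPM), Fabp5 (838), Cd36 (266), Lpl (147), Angptl4 (43.5), Fabp3 (35.4), Slc27a1 (26.6), Vldlr (16.7), Slc27a4 (15.3) and Fabp7 (7.40 TPM). There Angptl4 and Fabp3 overlapped, and so did Vldlr and Slc27a4. Angptl4 moved most in rank with treatment: it was 5th in polysome Rosi and 9th in polysome Veh, and 5th in input Rosi and 8th in input Veh. In polysome Veh it overlapped Slc27a4 above it and Fabp7 below it.

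**Figure D5:**
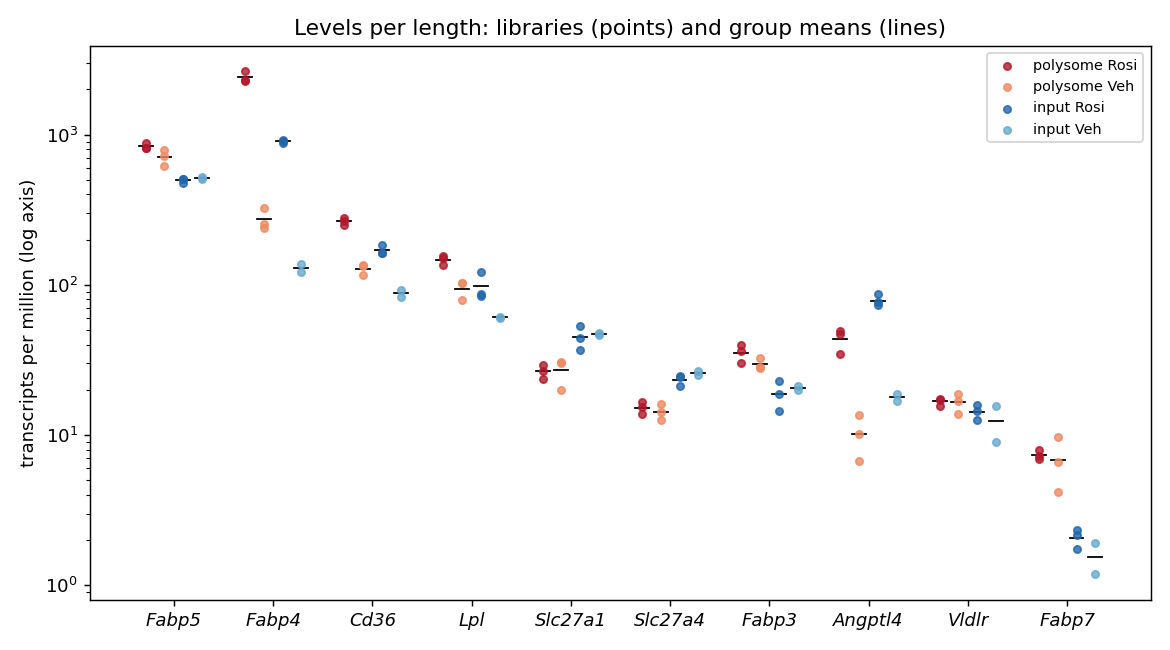
Levels of the 10 genes in TPM on a log axis, ordered by input Veh, with 1 point per library and a line at the mean of polysome Rosi, polysome Veh, input Rosi (n = 3 each) and input Veh (n = 2). Fabp4 lay above Fabp5 in both Rosi groups and below it in both Veh groups.

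Across the 11 libraries the genes whose scaled log2 levels followed Fabp4 most closely, of 12643 compared, were Cdo1 (Pearson's r = 0.98), Lrrc39 (0.98), Arxes2 (0.98), Rgcc (0.98) and Cd36 (0.97). Arxes2 and Rgcc had log2 fold changes for Rosi over Veh of 1.73 and 0.82 in the polysome pool and 2.06 and 0.94 in input. Among the 10 genes, r with Fabp4 was 0.82 for Lpl, 0.66 for Angptl4 and 0.38 for Fabp5, and Slc27a1 and Slc27a4 had r = 0.96 with each other. The libraries fall into the 4 groups, whose differences enter these values.

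Of 48 further genes of fatty acid and lipoprotein handling, 34 were tested for Rosi against Veh and 35 for polysome against input. Rosi raised 2 of the 34 in the polysome pool, where 0.633% of all genes were called higher, and 2 of the 34 in input, where 1.13% were, and none was called lower. Acsl1, the acyl-CoA synthetase that activates fatty acids in adipocytes, stood at 93.6, 96.0 and 96.6 CPM in polysome Rosi, against 29.1, 32.1 and 32.3 CPM in polysome Veh, with log2 fold changes of 1.60 ± 0.11 (SE; adjusted p = 2.56e-06, edgeR) in that pool and 2.02 ± 0.12 (adjusted p = 5.32e-07) in input. Apoc1, an apolipoprotein, was called in the polysome pool on 91 reads in Rosi and 14 in Veh (2.52 ± 0.50; adjusted p = 0.0397). Sort1, a sorting receptor that binds lipoprotein lipase, was called in input (0.66 ± 0.11; adjusted p = 0.00795).

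Between the pools, 1 of the 35 was called higher and 3 lower in Rosi, where 6.49% and 4.86% of all genes were, and 0 higher and 5 lower in Veh, where 2.99% and 6.68% were. Lrp1, an endocytic receptor, had log2 fold changes of −1.61 in Rosi and −1.85 in Veh, and the lipid transfer protein Pltp of −1.06 in Rosi and −1.31 in Veh. Apoe (−1.07) and Got2 (−1.12) were called lower in Veh. Dbi, the small acyl-CoA binding protein, was called higher in Rosi (1.35 ± 0.13, SE; adjusted p = 1.03e-06). Of the 48 genes, 13 could not be tested, with at most 32 reads each over the 11 libraries: Fabp1, Fabp2, Fabp6, Fabp9, Fabp12, Crabp1, Rbp7, Slc27a2, Slc27a5, Gpihbp1, Lipc, Apoa5 and Apoc3. Gpihbp1, which holds lipoprotein lipase on the capillary wall, had 0 reads.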

How the data were processed

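Transcripts were quantified by the authors with Salmon against mm10 after demultiplexing with bcl2fastq 2.17, per the labels. The authors deposited an estimated count and a TPM value for each transcript of each library. Sample titles name the polysome libraries by tissue alone. The protocols give 4 days of differentiation, the series' design text 3. Estimated counts of 115973 of 117135 transcripts (the rest held at most 0.464% of reads) were summed to 35523 genes (GENCODE M21) and rounded. CPM use the TMM library sizes of a joint fit.

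Genes were tested with edgeR 4.0.16 (quasi-likelihood F test, filterByExpr, two-sided, Benjamini-Hochberg over all genes tested), checked first on simulated data. Rosi against Veh was fitted per pool, and the other comparisons in 1 fit of 4 groups. Calls required adjusted p below 0.05 together with a log2 fold change past 0.2 (Rosi against Veh) or 1 (others) in either direction. SE was derived from the estimate and its F statistic. P-values measure only the spread between libraries. All 10 genes are described, with further pathway genes if called or nearly unread, and 5 genes by correlation with Fabp4. The genes and lists were chosen with earlier results of these data known. Alternatives were DESeq2 1.42.0, limma 3.58.1 on log2(TPM + 1), RLE factors, other count filters, other fits, left-out libraries and a replicate block. Of the pathway genes called, 1 is not reported here.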

Additional observations from a re-analysis of the deposited data

How the results depend on the processing

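Fabp4, Angptl4 and Cd36 kept their call and direction for Rosi against Veh in both pools under each alternative. Genes called in input were 182, against 385 with DESeq2, 907 without a count filter, 57 with limma on log2(TPM + 1), 1054 with all libraries as deposited and 77 in 1 fit of all 4 groups, and 66 to 1580 with 1 library left out (1580 without input Rosi replicate 1). In the polysome pool 88 were called, against 189 without a count filter and 37 with limma, and 55 to 179 with 1 library left out. With 1 library left out, 3 to 5 of the 10 genes were called in input and 3 to 4 in the polysome pool. Lpl was called in 6 of 15 alternatives in input and 3 of 14 in the polysome pool. For polysome over input in Veh, 1358 genes and 1 of the 10 were called, against 6929 and 10 without a fold threshold, 844 and 2 with limma, 995 to 1705 and 1 to 5 with 1 library left out. In Rosi, 1593 and 2 were called, against 7731 and 10 without a fold threshold, 876 with limma, and 1351 to 1769 and 2 to 3 with 1 library left out. The difference of these folds, called for 0 genes, was called for 1 with DESeq2, 57 without a count filter and 0 to 9 with 1 library left out, and for 0 of the 10 genes each time. A lone input Veh library was assumed to vary like the other groups. The causes were not tested.

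Same-numbered libraries of different groups correlated at −0.23 to 0.12 in their deviations from group means. With means over 2 or 3 libraries, these values cannot show whether the numbers pair the samples. The paper describes input as total RNA taken before fractionation. With the number as a replicate block, Lpl was called in input (0.74, adjusted p = 0.000101), and with the identical library as number 3 the block called 2 of the 10 for polysome over input in Veh. In that comparison, Fabp3 and Vldlr lost an adjusted p under 0.05 with the first block, and Fabp3 with the second.

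Changes of sign were seen only in values that were not called. For Rosi against Veh, Vldlr in input was −0.0062 in 1 fit of all groups, and Slc27a1 in the polysome pool was −0.0036 with limma. For the difference of folds, Angptl4 was 0.0021 without a count filter, 0.041 with all libraries as deposited and 0.057 with the second block, Lpl was −0.0089 with limma, and Vldlr was −0.21 with limma, −0.042 as deposited and −0.012 with the second block. With 1 library left out, values for Rosi against Veh ran from −0.14 to 0.29 for Vldlr in input, and in the polysome pool from −0.071 to 0.13 for Vldlr, −0.16 to 0.14 for Slc27a1 and −0.21 to 0.44 for Fabp7. The difference of folds then ran from −0.17 to 0.19 for Angptl4, −0.084 to 0.30 for Lpl, −0.19 to 0.22 for Vldlr and −0.66 to 0.18 for Fabp7. By CPM per kilobase in place of TPM, 6 of the 10 genes kept their rank in polysome Rosi and 6 in polysome Veh.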
